A study of Mus musculus with 3 samples.

Results

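Potassium channel genes were taken as the protein-coding genes whose symbol starts with Kcn: 94 of the 21883 protein-coding genes in the mouse RefSeq annotation of GRCm38.p6. By symbol they comprised 40 pore subunits of voltage-gated channels, 15 inward rectifiers, 14 tandem-pore-domain channels, 8 calcium- or sodium-activated channels and 17 auxiliary subunits. Accessibility of a gene was the sum of counts over the deposited 500 bp regions (features) that overlapped the gene body plus 2 kb on both sides, scaled to all counts of the same nuclei and given as counts per 1000000 (CPM). At least 1 feature lay in the window of 91 members, compared with 18015 of all protein-coding genes; Kcne2, Kcna10 and Kcnk18 had none. The values describe open chromatin, not transcripts or currents.

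The series mapped open chromatin in GFP-sorted nuclei of mouse dorsal skin by ATAC-seq of single nuclei, where a transposase inserts adapters into accessible DNA. All animals carried Dct-rtTA and Tre-H2B-GFP and drank doxycycline for 5 days, so that the promoter of Dct, a melanocyte gene, drove a nuclear GFP; the labels give an age of 7 weeks in one place and 8 weeks in another. Telogen skin (the resting hair cycle) came from 12 mice and anagen skin, set growing by depilation with Nair cream, from 8 mice, together in 1 library. UVB skin came from 1 pool of 24 mice exposed 3 times to 2.2 mJ/cm2, sequenced as 2 technical replicates that share 1 matrix. Each condition is therefore 1 sample, no test between conditions or classes of nuclei could be made, and UVB and its library cannot be told apart.

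Potassium channels let potassium ions leave or enter a cell along their gradient, and so set the resting voltage and shape how fast a cell returns to it. Voltage-gated channels open on depolarisation, inward rectifiers hold the voltage near rest, tandem-pore-domain channels carry background leak, and calcium-activated channels couple the voltage to calcium; auxiliary subunits change where and how the pores open. In pigment cells inward rectifiers are best known from fish, where Kcnj13 alters stripe patterns, while in glia Kcnj10 takes up potassium released by active axons.

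Promoter sequences are shown for 5 members whose start site lay in an accessible feature and on which the results below turn: Kcnj13, with most of its counts in melanocyte-like nuclei of anagen skin; Kcnmb4 and Kcna2, both higher in melanocyte-like nuclei; and Kcnj10 and Kcnk13, both higher in Schwann-like nuclei. Each runs 5′ to 3′ from 250 bases before to 50 bases after the start site, in RefSeq's GRCm38.p6, and capitals mark matches to any of 5 motifs searched on both strands: the E-boxes CACGTG and CATGTG, the SOX motifs ACAAAG and AACAAT, and the AP-1 motif TGANTCA.
Kcnj13 promoter, chr1:87394680-87394979, minus strand: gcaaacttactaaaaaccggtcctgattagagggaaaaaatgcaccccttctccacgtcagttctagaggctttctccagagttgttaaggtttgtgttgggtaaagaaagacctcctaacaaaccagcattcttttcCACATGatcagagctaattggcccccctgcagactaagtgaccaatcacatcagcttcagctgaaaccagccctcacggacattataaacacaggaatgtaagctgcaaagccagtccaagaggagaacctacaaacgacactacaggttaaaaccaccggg
Kcnmb4 promoter, chr10:116473474-116473773, minus strand: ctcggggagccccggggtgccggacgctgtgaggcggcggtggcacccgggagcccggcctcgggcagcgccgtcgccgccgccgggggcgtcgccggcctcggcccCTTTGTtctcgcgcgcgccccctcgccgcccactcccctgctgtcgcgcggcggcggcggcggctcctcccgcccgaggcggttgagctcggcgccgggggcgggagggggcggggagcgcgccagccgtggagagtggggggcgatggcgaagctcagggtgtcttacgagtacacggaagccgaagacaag
Kcna2 promoter, chr3:107101317-107101616, plus strand: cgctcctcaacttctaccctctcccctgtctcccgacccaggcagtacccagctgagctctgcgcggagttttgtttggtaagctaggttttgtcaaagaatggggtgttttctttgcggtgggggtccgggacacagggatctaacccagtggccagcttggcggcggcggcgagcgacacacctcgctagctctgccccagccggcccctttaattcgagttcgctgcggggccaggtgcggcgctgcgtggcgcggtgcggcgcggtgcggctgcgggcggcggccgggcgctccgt
Kcnj10 promoter, chr1:172340960-172341259, plus strand: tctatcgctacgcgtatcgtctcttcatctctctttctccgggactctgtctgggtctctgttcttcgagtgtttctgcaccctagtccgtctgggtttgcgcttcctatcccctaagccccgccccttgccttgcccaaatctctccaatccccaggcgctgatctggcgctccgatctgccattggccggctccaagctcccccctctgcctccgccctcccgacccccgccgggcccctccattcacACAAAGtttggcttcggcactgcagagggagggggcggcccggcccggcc
Kcnk13 promoter, chr12:99964249-99964548, plus strand: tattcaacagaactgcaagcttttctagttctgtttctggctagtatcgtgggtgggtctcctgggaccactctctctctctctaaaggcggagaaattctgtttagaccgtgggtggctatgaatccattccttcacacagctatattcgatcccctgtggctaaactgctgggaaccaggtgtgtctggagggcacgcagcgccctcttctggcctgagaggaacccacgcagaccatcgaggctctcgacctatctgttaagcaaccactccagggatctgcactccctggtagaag
The match in Kcnj13 is CACATG, the reverse complement of CATGTG, starting at -112 from the start site; that in Kcnmb4 is CTTTGT at -143, the reverse complement of ACAAAG, and that in Kcnj10 is ACAAAG at position 0. No match was found in the windows of Kcna2 and Kcnk13. Of all 21262 RefSeq promoters of this length, 7.84% held CACGTG, 11.5% CATGTG, 16.8% ACAAAG, 9.05% AACAAT and 6.99% TGANTCA; of the 94 entries that matched 69 members, 7, 3, 14, 6 and 4 did. A match describes letters and is no evidence of binding. The deposited features covered all 300 bases of the Kcnj13, Kcnj10 and Kcnk13 windows, 255 of Kcnmb4's and 209 of Kcna2's.

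Many barcodes shared over 30% of their open features with another of the same condition and were treated as second copies of 1 nucleus: 543 in telogen (21.0%), 1725 in anagen (31.5%) and 61 in UVB (0.922%). One of each set was kept, which left 2042, 3749 and 6554 nuclei with 5225945, 10386127 and 16183702 counts and a median of 1650, 1577 and 1726 per nucleus; 506 barcode sequences occurred in more than 1 condition and were kept. Nuclei were grouped without the 1063 features in Kcn windows. Clusters 1 and 8 were called melanocyte-like (142, 979 and 1978 nuclei in telogen, anagen and UVB), and cluster 10 Schwann-like (72, 96 and 459 nuclei). The summed melanocyte markers, 13 genes with Mlana and Sox10 among them, stood at 4008 to 5584 CPM in melanocyte-like nuclei, at 1745 to 2147 in Schwann-like nuclei and at 614 to 1148 in the others. Of the 13, 11 were at least 2-fold higher than in other nuclei in telogen, 13 in anagen and 11 in UVB. Mlana had the highest ratio in telogen and anagen and Sox10 in UVB, whereas Oca2 was not higher in telogen (0.760-fold) or UVB (0.999-fold). The Schwann name rests on less: of its 12 markers, 5, 9 and 6 were at least 2-fold higher than in other nuclei, among them Foxd3 and Cdh19. Ngfr was lower in telogen (0.377-fold), and Egr2 was not higher in anagen (0.782-fold) or UVB (0.878-fold). The Schwann list summed to 1602 to 1684 CPM in Schwann-like nuclei, against 602 to 882 in melanocyte-like nuclei. The pericyte and smooth muscle list was also raised there, at 492 to 645 CPM, against 223 to 298 in other nuclei. "Other nuclei" below are the remaining 1828, 2674 and 4117, which include keratinocyte-like, fibroblast-like, endothelial-like and myeloid-like nuclei and 2 clusters given by number: most nuclei of the sort were not melanocyte-like by these markers.

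Potassium channel loci had fewer counts than the median gene, and a smaller share of them near gene ends. The members with a feature had a median of 7 features in a gene of 36.2 kb and 416 counts over all nuclei, compared with 6 features, 22.2 kb and 992 counts for all genes with a feature. Only 23.7% of the members' counts lay within 1 kb of a gene end, compared with 53.9% for all genes. In 71 members no count was shared with another gene's window, but in 11 more than 50% was: all counts of Kcnj13 also lay in the window of Gigyf2, all of Kcnj14 in that of Cyth2, and 98.1% of Kcnh4 in those of Hcrt and Rab5c. In melanocyte-like nuclei the highest accessibility per 10 kb of window was at Kcnj14 (mean of 121 CPM per 10 kb over the 3 conditions), Kcnn1 (46.5) and Kcnh4 (39.5). Kcnj14 and Kcnh4 cannot be told apart from their neighbours. Over the whole window, which favours long genes, the highest CPM included Kcnab1 (120, 133 and 76.6 in telogen, anagen and UVB), an auxiliary subunit, Kcnip1 (99.1, 60.5 and 106), Kcnh4 (116, 75.1 and 90.6), Kcnn1 (157, 86.2 and 127) and Kcnma1 (149, 86.4 and 128). At the other end, 47 of 94 members had no count in the 142 telogen melanocyte-like nuclei, 7 had none in anagen and 7 none in UVB; 1 count is worth 4.13, 0.214 and 0.206 CPM there, so an empty telogen gene could stand as high as 12.4 CPM (3 counts). Kcnk1, a leak channel, had no count in melanocyte-like nuclei of any condition, which allows up to 0.642 CPM in anagen and 0.618 in UVB.

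Of the channel genes, 4 were more open in melanocyte-like than in other nuclei and 4 less. A member was counted where the ratio of CPM was at least 2 (or at most 0.5) in all 3 conditions, with at least 30 counts in both sides together. Kcna2, Kcnc2, Kcnj12 and Kcnmb4 met this, 4 of 57 members with enough counts (7.02%), where the same rule took 2.6% of all 13791 such genes. They were 2 of 23 voltage-gated pore subunits, 1 of 8 inward rectifiers and 1 of 12 auxiliary subunits with enough counts. The median log2 ratio ran the other way: -0.33, -0.38 and -0.63 for the members in telogen, anagen and UVB, compared with -0.10, 0.03 and 0.12 for all genes. These shares are not matched for counts: members with a feature had a median of 416 counts, compared with 992 for all such genes. Members exceeded all genes in both directions. In UVB alone 14.1% of members were higher and 37.2% lower, compared with 5.97% and 19.6% of all genes. The shares for other classes and comparisons below are not matched for counts either.

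Kcnc2 (chr10:112269898-112466304) encodes a voltage-gated pore subunit of fast-spiking neurons. In melanocyte-like nuclei it stood at 33.0 CPM in telogen (8 counts), 33.6 in anagen (157 counts) and 48.0 in UVB (233 counts). Other nuclei had 9.29, 10.6 and 16.4 CPM. The ratios were 3.56 (95% counting interval 1.45 to 7.62), 3.17 (2.33 to 4.35) and 2.92 (2.39 to 3.58). The other nuclei include cluster 3, which stood above melanocyte-like nuclei at Kcnc2 in each condition, with values given below. Cluster 3 had 2275 to 3122 CPM at the melanocyte markers, so Kcnc2 is not particular to the melanocyte-like class. A single feature within the gene window, chr10:112356732-112357232, far inside the gene, held 55.8% of the melanocyte-like counts. It stood at 23.1 CPM in anagen and 23.5 in UVB, compared with 1.80 and 5.05 in other nuclei, and had no count in telogen.

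Kcna2 (chr3:107090883-107115005) encodes a pore subunit of the delayed rectifiers found along myelinated axons, and was higher in both named classes than in other nuclei. Melanocyte-like nuclei had 37.2, 53.7 and 47.6 CPM in telogen, anagen and UVB (9, 251 and 231 counts). Schwann-like nuclei had 65.2, 99.7 and 67.4 CPM (9, 15 and 70 counts), and other nuclei 11.8, 13.3 and 17.6. In each condition the Schwann-like value was the highest. That other nuclei were the lowest follows from the rule by which Kcna2 was picked. The telogen value of each named class rests on 9 counts. The ratio of melanocyte-like to other nuclei was 3.16 (1.37 to 6.43), 4.04 (3.10 to 5.30) and 2.71 (2.22 to 3.31). The feature over the start site printed above held little of this, 0, 5.78 and 2.88 CPM in melanocyte-like nuclei. A feature upstream of that start site, chr3:107097426-107097926, held 16.5, 13.5 and 10.5 CPM, against 0.206, 2.16 and 2.82 in other nuclei. Over the 3 conditions, 222 of the 491 melanocyte-like counts of Kcna2 (45.2%) lay within 1 kb of an annotated start site of the gene.

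Kcnj12 (chr11:61022564-61073269) encodes a strong inward rectifier. Its melanocyte-like values were 37.2, 19.9 and 41.0 CPM (9, 93 and 199 counts), against 7.84, 4.49 and 11.1 in other nuclei, with ratios of 4.74 (2.01 to 9.97), 4.43 (2.82 to 7.19) and 3.70 (2.93 to 4.70). One feature, chr11:61028157-61028657, carried 62.8% of the melanocyte-like counts. Kcnmb4 (chr10:116417861-116473859) encodes the neuronal auxiliary subunit of the large-conductance calcium-activated (BK) channel. It stood at 20.6, 53.9 and 20.0 CPM (5, 252 and 97 counts) against 5.16, 5.93 and 9.72, so that anagen stood apart: the ratios were 4.00 (1.2 to 10.6), 9.09 (6.31 to 13.5) and 2.06 (1.54 to 2.75). Its printed promoter lies under a feature with 0, 9.84 and 5.56 CPM in melanocyte-like and 2.89, 3.24 and 3.40 CPM in other nuclei.

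The barcodes carry a number whose meaning the sources used here do not give. Among the numbers where both classes held at least 50000 counts, Kcnc2 was higher in melanocyte-like than in other nuclei in 1 of 2 telogen, 6 of 7 anagen and 12 of 14 UVB numbers, Kcna2 in 1 of 2, 7 of 7 and 12 of 14, Kcnj12 in 2 of 2, 4 of 7 and 12 of 14, and Kcnmb4 in 1 of 2, 5 of 7 and 9 of 14. With nuclei assigned by their share of counts at the marker genes in place of clusters, 1 member remained above 2-fold in all conditions, Kcnc2. Without cluster 8, which is 792 of the 979 anagen nuclei, Kcnmb4 no longer met the rule, and Kcnq5 and Kcnn2 did. Without the UVB barcode number with most nuclei, Kcnc2 and Kcnj12 met the rule and Kcna2 and Kcnmb4 did not. Scaled to housekeeping genes, 3 members were higher and 5 lower. With every deposited barcode kept and clustered anew, 6 were higher, among them all 4 above, and 5 lower, of which Kcnh1, Kcnj15 and Kcnk6 are described next and Kcnk2 was not one.

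The members less open in melanocyte-like nuclei were 1 voltage-gated, 1 inward rectifier and 2 leak channel genes. Kcnh1, Kcnj15, Kcnk2 and Kcnk6 were at most 0.5-fold in all 3 conditions, 4 of 57 (7.02%), where the rule took 6.66% of all genes. Kcnh1, a voltage-gated channel of the ether-a-go-go family, had 12.4, 10.3 and 8.24 CPM in melanocyte-like nuclei (3, 48 and 40 counts) and 31.2, 31.6 and 59.3 in other nuclei, with a ratio of 0.139 (0.0983 to 0.192) in UVB. Keratinocyte-like nuclei were the highest class in each condition, at 76.1, 143 and 141 CPM. Kcnk2, a mechanically and thermally gated leak channel, had 8.26, 6.42 and 9.48 CPM against 27.4, 22.7 and 35.2. It stood at 53.7, 66.8 and 79.5 CPM in keratinocyte-like nuclei and at 57.9, 76.9 and 17.8 in cluster 3. Kcnj15, an epithelial inward rectifier, was nearly closed in melanocyte-like nuclei, at 0, 8 and 6 counts (0, 1.71 and 1.24 CPM) against 27.4, 14.2 and 18.3 CPM. Kcnk6 had 0, 8.99 and 7.00 CPM against 27.9, 18.9 and 16.1. Both had 0 counts in telogen: with 0 taken as 3 counts their telogen ratios were 0.451 for Kcnj15 and 0.445 for Kcnk6, but the 95% intervals reached 0.563 and 0.554, so a ratio above 0.5 in telogen was not excluded by counting error. Neither Kcnj15 nor Kcnk6 met the rule without cluster 8. The telogen values of Kcnh1 and Kcnk2 also rest on few counts: 3 for Kcnh1, and 8.26 CPM for Kcnk2 where 1 count is worth 4.13. Counting error did not exclude a telogen ratio above 0.5 for Kcnh1 or Kcnk2 either.

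**Figure D1:**
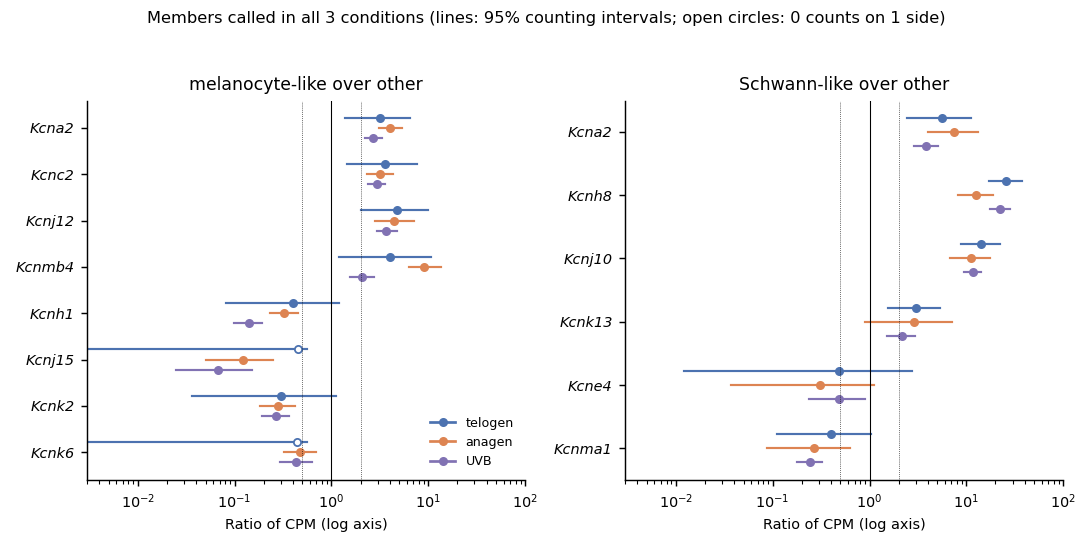
Ratio of CPM (log axis) in melanocyte-like over other nuclei (left) and in Schwann-like over other nuclei (right) for the members past 2-fold in the same direction in all 3 conditions; points are conditions, lines are 95% counting intervals, open circles have 0 counts on 1 side, and dotted lines mark 0.5 and 2. The melanocyte-like ratios of the 4 higher members lie between 2.06 and 9.09, whereas Kcnh8 and Kcnj10 reach 25.5 and 14.2 in Schwann-like nuclei.

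In Schwann-like nuclei Kcnh8 and Kcnj10 stood more than 10-fold above other nuclei. Kcna2, Kcnh8, Kcnj10 and Kcnk13 were at least 2-fold higher than in other nuclei in all 3 conditions, 4 of 41 members with enough counts (9.76%) against 3.06% of all 12196 genes. Kcne4 and Kcnma1 were at most 0.5-fold, 2 members against 2.53% of all genes. The comparison shares its other nuclei with the melanocyte-like one.

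Kcnj10 (chr1:172341210-172374085) encodes the inward rectifier of glia. It stood at 203, 160 and 204 CPM in Schwann-like nuclei (28, 24 and 212 counts), against 14.2, 14.4 and 17.6 in other nuclei and 20.6, 29.3 and 33.2 in melanocyte-like nuclei. In each condition the Schwann-like value was above those of both other groups. The ratios to other nuclei were 14.2 (8.84 to 22.4), 11.1 (6.72 to 17.7) and 11.6 (9.48 to 14.2). The feature over the printed promoter had 86.9, 33.2 and 40.5 CPM in Schwann-like and 3.51, 4.32 and 3.98 CPM in other nuclei. An internal feature, chr1:172349971-172350471, had 65.2, 73.1 and 79.0 CPM in Schwann-like and 0.825, 0.899 and 3.01 CPM in other nuclei.

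Kcnh8 (chr17:52602709-52979194), a voltage-gated channel of the ether-a-go-go-like family, had the largest ratios of the members past 2-fold in all 3 conditions. Schwann-like nuclei stood at 326, 213 and 211 CPM (45, 32 and 219 counts) and other nuclei at 12.8, 16.9 and 9.52, with ratios of 25.5 (17.0 to 38.0), 12.6 (8.15 to 19.0) and 22.2 (17.4 to 28.4). Melanocyte-like nuclei had 8.26, 17.3 and 19.8 CPM. Its highest feature in Schwann-like nuclei, chr17:52785940-52786440, lay far inside the gene and held 101, 73.1 and 50.1 CPM, against 0.413, 1.80 and 0.583 in other nuclei. Kcnk13, a leak channel known from microglia, had 94.2, 33.2 and 44.3 CPM (13, 5 and 46 counts) against 31.4, 11.5 and 20.7, with smaller ratios of 3.00, 2.89 and 2.14. Counting error did not exclude a Kcnk13 ratio under 2 in any condition. Myeloid-like nuclei had 74.8, 91.9 and 53.7 CPM, above the Schwann-like value in anagen and UVB.

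Kcna1 (chr6:126636463-126645801), the usual partner of Kcna2 in axonal channels, had too few counts in telogen for the rule (27 in both classes together) but was open mainly in Schwann-like nuclei. It stood there at 79.7, 126 and 82.9 CPM (11, 19 and 86 counts), against 3.30, 3.24 and 1.85 in other nuclei and 0, 0.856 and 1.65 in melanocyte-like nuclei. The anagen and UVB ratios to other nuclei were 39.0 (19.4 to 78.9) and 44.9 (27.1 to 78.1). Its neighbour Kcna6 had 14.5, 66.5 and 38.5 CPM in Schwann-like and 2.06, 2.34 and 2.33 CPM in other nuclei, from 2, 10 and 40 Schwann-like counts. Of the lower members, Kcnma1, the BK pore, had 29.0, 33.2 and 43.4 CPM in Schwann-like nuclei (4, 5 and 45 counts), against 71.6, 125 and 178 in other nuclei. Kcne4, an auxiliary subunit, had 1, 2 and 11 counts, or 7.24, 13.3 and 10.6 CPM, against 15.1, 43.2 and 21.8. Counting error did not exclude a ratio above 0.5 for Kcne4 in any condition, or for Kcnma1 in telogen and anagen.

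In the UVB barcode numbers where both classes could be compared, Kcnj10, Kcnh8 and Kcna2 were each higher in Schwann-like than in other nuclei in 6 of 6 and Kcnk13 in 5 of 6. Kcnma1 and Kcne4, lower over all UVB nuclei, were each higher in 2 of 6. Without the UVB number with most nuclei, Kcnk13 and Kcne4 no longer met the rule. In telogen and anagen no number held enough Schwann-like counts. With nuclei assigned by marker share in place of clusters, no member was past 2-fold in all 3 conditions in either direction. With every deposited barcode kept, 6 members were higher, Kcna2, Kcnh8, Kcnj10 and Kcnk13 with Kcna1 and Kcnn2, and Kcne4 and Kcnma1 were lower.

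**Figure D2:**
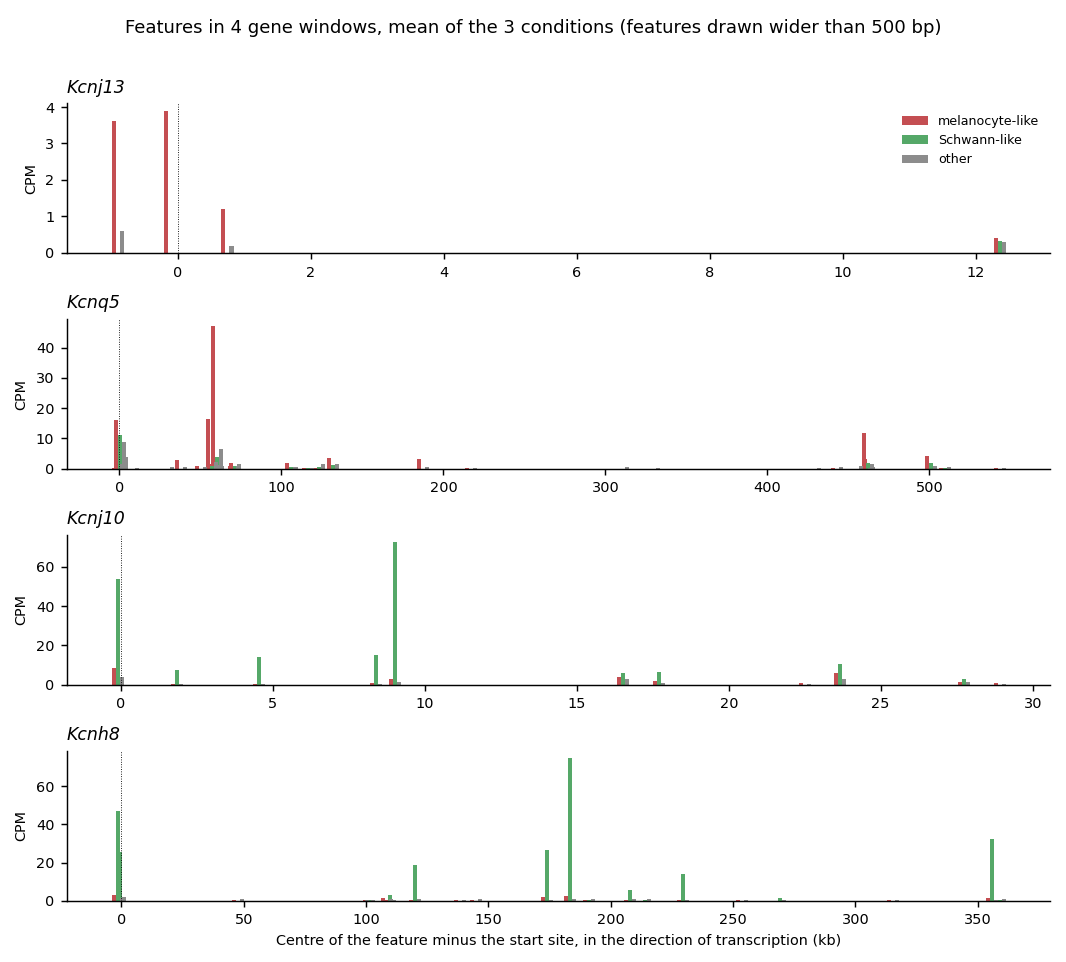
Mean CPM over the 3 conditions of each feature in the windows of Kcnj13, Kcnq5, Kcnj10 and Kcnh8 in melanocyte-like, Schwann-like and other nuclei, by distance of the feature's centre from the nearest start site in kb in the direction of transcription (bars of 1 feature stand side by side and are drawn wider than 500 bp). Kcnj13 counts lie around the start site, whereas the highest feature lies inside the gene for Kcnq5 in melanocyte-like nuclei and for Kcnj10 and Kcnh8 in Schwann-like nuclei.

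Cluster 1 held 140, 187 and 1941 of the melanocyte-like nuclei in telogen, anagen and UVB, and cluster 8 held 2, 792 and 37. The anagen class was therefore mostly another cluster than the telogen and UVB classes, and the 3 conditions differ in makeup. Cluster 8 had the higher summed melanocyte markers in anagen, 5742 against 3816 CPM in cluster 1, with Oca2, a pigment gene, among its leading genes. Cluster 1 was the higher of the pair in anagen for the Schwann list (925 against 573 CPM), the pericyte and smooth muscle list (360 against 187), the endothelial list (172 against 101) and the keratinocyte list (686 against 475), and had fewer counts per nucleus (a median of 1601 against 3333.5). The part of these differences in the results below was not tested. Cluster 3 (95, 184 and 1043 nuclei) was led by Dbpht2, Dcx and Fut9 and had 2275, 3067 and 3122 CPM at the melanocyte markers. It was left unnamed, since no melanocyte marker and 1 pericyte marker, Rgs5, stood among its leading genes. Cluster 1 had no melanocyte marker among its leading genes either, but none of another list. With Kcn features kept in the clustering or with seed 3, no cluster was left unnamed. Telogen melanocyte-like nuclei then numbered 225 and 223, in place of 142. Those of anagen numbered 1142 and 1136, in place of 979. Those of UVB numbered 2980 and 2878, in place of 1978.

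Kcnq5, Kcnn2, Kcnip3 and Kcnn4 were lower in anagen cluster 8 than in anagen cluster 1. Kcnq5 (chr1:21398399-21962650), a slow voltage-gated channel of the M-current family, had 187, 203 and 155 CPM in cluster 1 (44, 78 and 717 counts). In cluster 8 it had 38.9 CPM in anagen (167 counts) and 50.9 in UVB (11 counts). Cluster 3 was higher than either, at 298, 269 and 228 CPM, and other nuclei had 40.9, 27.0 and 62.9. Within anagen, cluster 8 stood at 0.191 of cluster 1 (0.145 to 0.254). The feature chr1:21901225-21901725, inside the gene, carried 33.3% of the melanocyte-like counts, and had 76.6, 109 and 53.7 CPM in cluster 1 but 6.53 in anagen cluster 8.

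Kcnn2, a small-conductance calcium-activated channel, had 200, 198 and 263 CPM in cluster 1 and 73.7 in anagen cluster 8, a ratio of 0.372 (0.289 to 0.484). Cluster 3 stood at 356, 255 and 355 CPM and other nuclei at 45.6, 57.2 and 106, in anagen below both clusters. Kcnip3 (chr2:127456498-127522094), a calcium-binding auxiliary subunit that also acts as a transcriptional repressor, had 157, 143 and 123 CPM in cluster 1, 36.8 in anagen cluster 8 and 52.8, 60.2 and 84.0 in other nuclei. Its highest feature, chr2:127482320-127482820, lies at a start site, and stood at 33.0, 10.3 and 50.3 CPM in melanocyte-like nuclei. Kcnn4 (chr7:24369826-24385212), the intermediate-conductance calcium-activated channel, had 38.3, 54.7 and 52.8 CPM in cluster 1 and 13.5 in anagen cluster 8. Other nuclei had 46.8, 31.3 and 30.5 CPM, in telogen above cluster 1. Of the other calcium-activated members, Kcnn3 had 44.3 CPM in anagen cluster 1 (17 counts) and 10.5 in anagen cluster 8 (45 counts).

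Kcnj13 and Kcnmb4 showed the reverse. Kcnj13 (chr1:87384577-87394729), an inward rectifier of the retinal pigment epithelium and of fish pigment cells, had 0, 105 and 24 counts in melanocyte-like nuclei (0, 22.5 and 4.94 CPM). All 105 anagen counts were in cluster 8, where it stood at 24.5 CPM; cluster 1 had 0 counts in telogen and anagen and 21 in UVB. With the 0 of cluster 1 taken as 3 counts, the anagen cluster 8 level was 3.13 times that of cluster 1, and the 95% interval began at 2.50. Other nuclei had 1.03, 1.44 and 0.777 CPM, and Schwann-like nuclei 1 count in all. The feature over the printed promoter, chr1:87394587-87395087, held 48 of the anagen and 7 of the UVB melanocyte-like counts and none in Schwann-like or other nuclei; the next, chr1:87395379-87395879, held 40 and 11. Because all 4 features of Kcnj13 also lie in the window of Gigyf2, the files do not assign them to either gene. Kcnmb4 had 56.6 CPM in anagen cluster 8 and 23.5 in anagen cluster 1, a ratio of 2.41 (1.25 to 5.34).

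**Figure D3:**
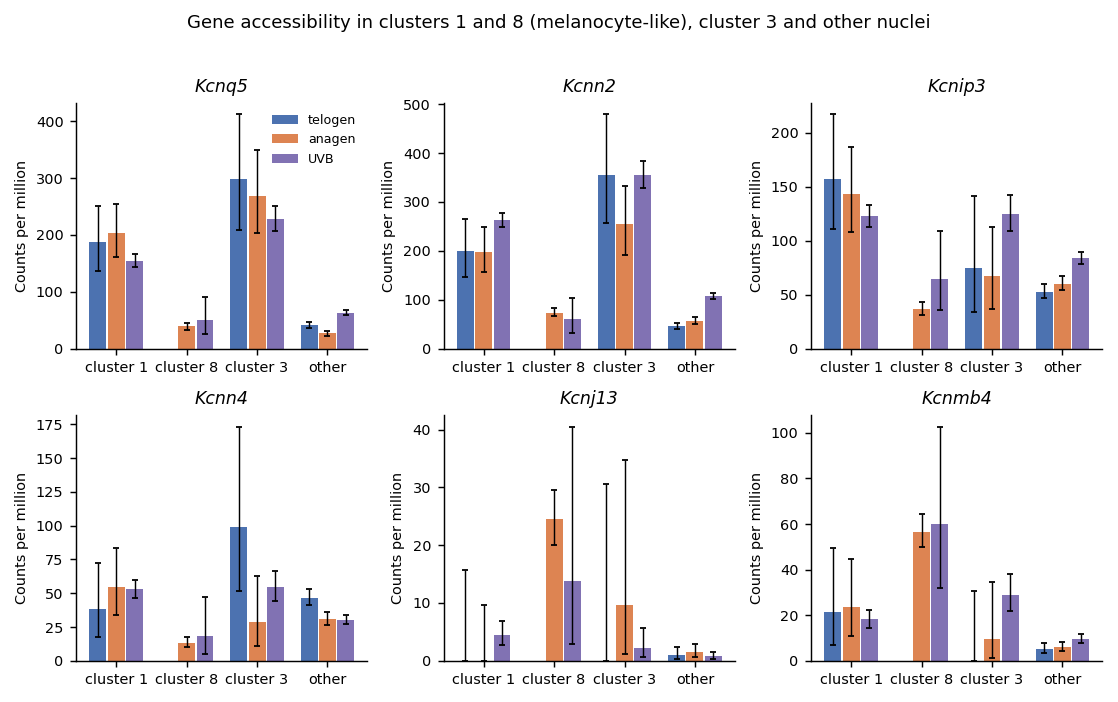
CPM of 6 members in cluster 1, cluster 8 and cluster 3 and in other nuclei (which include cluster 3), with bars for the 3 conditions and lines for 95% counting intervals; cluster 8 is not drawn for telogen, where it held 2 nuclei. Kcnq5, Kcnn2, Kcnip3 and Kcnn4 are lower in anagen cluster 8 than in anagen cluster 1, and Kcnj13 and Kcnmb4 are higher.

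Compared between conditions over all melanocyte-like nuclei, anagen had more members past 2-fold against either other condition than UVB had against telogen. These 3 comparisons share their samples. In anagen over telogen, 11 of 49 members were at least 2-fold higher and 9 lower (15.5% and 9.78% of all genes). In UVB over telogen, 4 of 40 members were higher and 1 lower (9.68% and 5.13% of all genes), and in UVB over anagen, 7 of 62 were higher and 15 lower (5.57% and 11.9% of all genes). Scaling to the ends of 13 housekeeping genes in place of all counts moved every log2 ratio of anagen to telogen by 0.60, of UVB to telogen by 0.13 and of UVB to anagen by -0.47. It gave 22 members higher and 3 lower in the first, 5 and 1 in the second, and 5 and 26 in the last, so the split between directions depended on the scale. Within cluster 1 alone, anagen over telogen left 1 member higher, Kcnk5, and none lower, of 13 with enough counts (7.29% and 4.56% of all genes). There UVB over anagen left 1 higher, Kcnj16, and 5 lower, of 48 (7.74% and 5.62% of all genes). With every deposited barcode kept, the counts higher and lower were 14 and 15 for anagen to telogen, 6 and 6 for UVB to telogen, and 6 and 15 for UVB to anagen. The share of all genes was not counted on the housekeeping scale or with every barcode kept.

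Kcnq5 had 182 CPM in telogen, 52.4 in anagen and 150 in UVB over all melanocyte-like nuclei, Kcnn2 had 202, 83.9 and 254, and Kcnip3 had 153, 45.6 and 120. Anagen was the lowest for all 3, with ratios to telogen of 0.289 (0.209 to 0.407), 0.415 (0.307 to 0.570) and 0.298 (0.210 to 0.435). In cluster 1 alone anagen and telogen stood at 203 and 187 CPM for Kcnq5, 198 and 200 for Kcnn2 and 143 and 157 for Kcnip3. Without cluster 8 the UVB-to-anagen difference of Kcnq5, Kcnip3 and Kcnn4 and the anagen-to-telogen difference of Kcnq5 turned direction. Kcnip4 had 49.5, 18.0 and 30.9 CPM, and Kcnh5, a voltage-gated channel of the same family as Kcnh1, had 20.6, 6.20 and 30.3. Kcnj14 had 211, 90.5 and 143 CPM, all of it shared with Cyth2.

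Kcnk5, an acid- and volume-sensitive leak channel, was lowest in telogen: 24.8 CPM (6 counts), 91.6 in anagen (428) and 74.2 in UVB (360). The ratios to telogen were 3.70 (1.68 to 10.1) and 2.99 (1.36 to 8.21). In cluster 1 it had 25.5, 75.6 and 71.1 CPM. That cluster held 140 of the 142 telogen and 1941 of the 1978 UVB nuclei. Its telogen and UVB values are therefore nearly the same data as above and no separate check. Its anagen value is compared with the same few telogen counts. Kcnk5 was not past 2-fold in either comparison with every deposited barcode kept. Kcnq1, a voltage-gated channel of epithelia and heart, had 8.26, 52.8 and 40.2 CPM, from only 2 telogen counts. Its ratios to telogen, 6.40 (1.75 to 53.1) and 4.86 (1.33 to 40.5), have wide intervals. Kcnk13, Kcnk4 and Kcnip2 had 0 telogen counts, so that the ratios of their anagen levels of 25.5, 28.0 and 26.7 CPM, 2.06, 2.26 and 2.16, rest on 0 taken as 3 counts. The 95% intervals began at 1.65, 1.81 and 1.73, under 2-fold, and 69.4% of Kcnk4's counts lay in the windows of Catsperz and Esrra.

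Among the members lower in UVB than in anagen, Kcnu1 had 0, 5.99 and 1.65 CPM in telogen, anagen and UVB. All 28 of its anagen counts were in cluster 8, which held 4290292 of the 4673916 anagen melanocyte-like counts over all features. Kcnj11, the pore of ATP-sensitive channels, had 0, 9.63 and 1.65 CPM, and in anagen 18.2 CPM in cluster 1 (7 counts) and 8.86 in cluster 8 (38 counts). Kcnd3 had 0, 16.7 and 5.97 CPM and Kcnq3 16.5, 8.34 and 2.47. In the other direction Kcnj16, an inward rectifier, had 2, 5 and 75 counts (8.26, 1.07 and 15.4 CPM), a UVB-to-anagen ratio of 14.4 (5.92 to 45.8). Its other nuclei had 28.5, 8.99 and 26.7 CPM, lowest in anagen as well. Kcnmb2 was lower in UVB than in telogen, with 5, 43 and 30 counts (20.6, 9.20 and 6.18 CPM) and a ratio of 0.299 (0.115 to 0.988). It was not called without the UVB barcode number with most nuclei. With clustering seed 3, or with Kcn features kept in the clustering, 4 members were higher and 8 lower in UVB than in telogen.

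Of the other classes, keratinocyte-like nuclei and cluster 7 had the most members higher. In all, 10 members were at least 2-fold higher in keratinocyte-like nuclei than in all other nuclei in the 3 conditions, of 61 with enough counts (16.4% of members, 5.56% of all genes): Kcnc4, Kcne3, Kcnh1, Kcnh2, Kcnip2, Kcnj9, Kcnj15, Kcnj16, Kcnk2 and Kcnk7. Kcnc4, a fast voltage-gated channel, stood at 139, 79.8 and 103 CPM there, 18.8, 7.28 and 11.5 times the level of all other nuclei. Kcnk7 had 126, 70.5 and 81.8 CPM, all shared with Ehbp1l1 and Map3k11. In endothelial-like, myeloid-like and fibroblast-like nuclei the share of members higher was near that of all genes. In endothelial-like nuclei 2 of 62 members were higher (3.23%, against 3.59% of all genes), Kcng4 and Kcnk5; Kcnk5 stood at 170, 180 and 150 CPM there, above its values in melanocyte-like nuclei. In myeloid-like nuclei 3 of 54 members were higher (5.56%, against 4.2% of all genes): Kcng2, Kcnk13 and Kcna3, the voltage-gated channel of lymphocytes and macrophages, with 69.4, 55.9 and 38.1 CPM against 8.99, 9.08 and 14.4 in all other nuclei.

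Fibroblast-like nuclei and cluster 7 shared 2 higher members, Kcne4 and Kcnj8. In fibroblast-like nuclei 3 of 62 members were higher (4.84%, against 4.2% of all genes): these and Kcnma1, which stood at 176, 199 and 326 CPM. In cluster 7 (104, 676 and 122 nuclei) 7 of 54 members were higher (1.74% of all genes), among them Kcnb2, Kcne4, Kcnj8, Kcnn1, Kcns3 and Kcnv2. The cluster had nearly equal scores for the pericyte and smooth muscle list and the fibroblast list and is given by number. Kcnv2, a silent subunit known from photoreceptors, was the leading gene of cluster 7, with 108, 80.1 and 32.5 CPM against 5.79, 9.75 and 3.39 in all other nuclei. Kcnj8, the pore of the vascular ATP-sensitive channel, had 24.0, 30.8 and 16.1 CPM in fibroblast-like nuclei and 13.6, 30.1 and 24.4 in cluster 7, and only 0, 3 and 6 counts in melanocyte-like nuclei. In cluster 3, 3 of 49 members were higher (1.91% of all genes): Kcnc2, at 116, 43.3 and 57.4 CPM, Kcnn2 and Kcnq5.

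**Figure D4:**
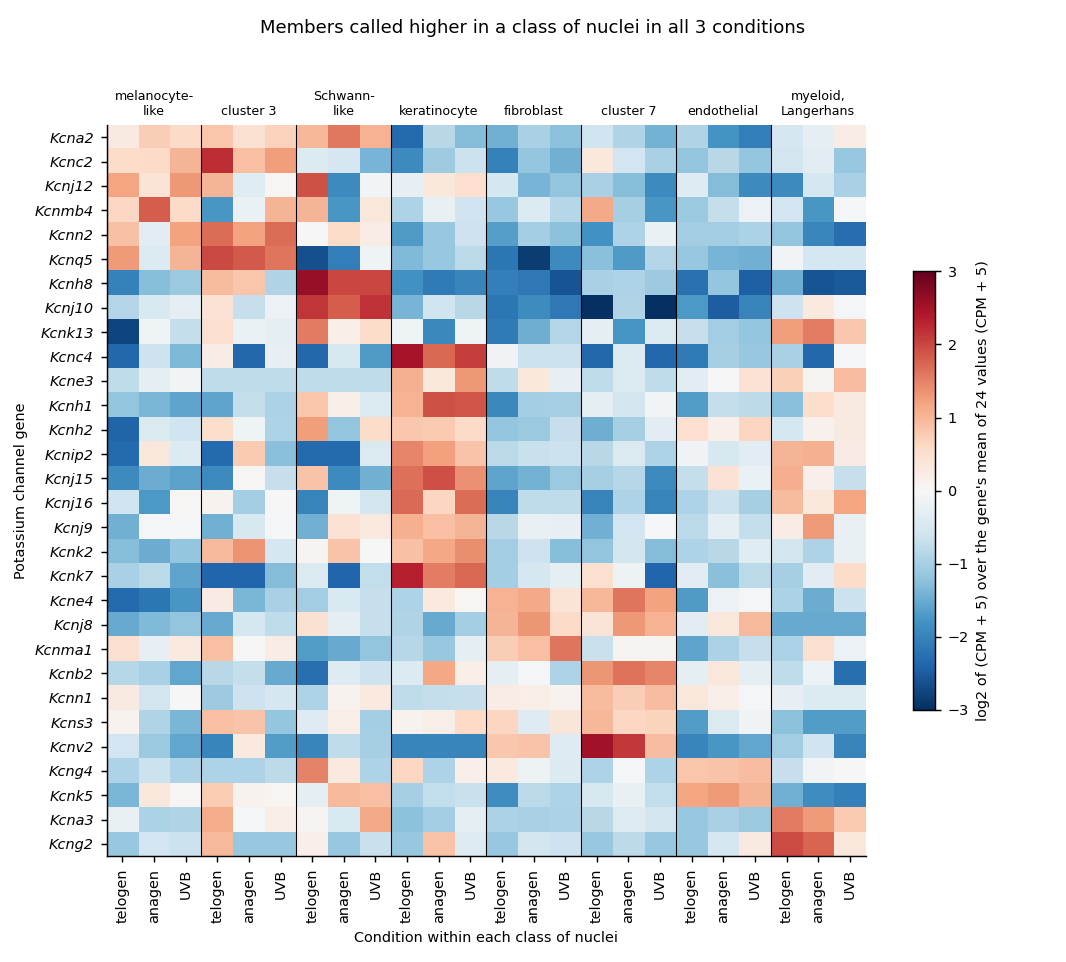
Accessibility of members at least 2-fold higher in a class of nuclei in all 3 conditions, as the log2 of (CPM + 5) over the gene's mean of 24 values, by class and condition. Kcnh8 and Kcnj10 stand out in Schwann-like nuclei, Kcnc4 and Kcnk7 in keratinocyte-like nuclei and Kcnv2 in cluster 7, and Kcnc2, Kcnn2 and Kcnq5 in cluster 3; Kcnc2 is also higher in melanocyte-like nuclei, and Kcna2 in melanocyte-like and Schwann-like nuclei.

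A further 13 partner genes that are not named Kcn but work with these channels were followed as a list, among them Dpp6, Dpp10 and Amigo1, which bind voltage-gated pores, the sulfonylurea receptors Abcc8 and Abcc9, the BK subunits Lrrc26, Lrrc38, Lrrc52 and Lrrc55, and the pacemaker channels Hcn2, Hcn3 and Hcn4. In melanocyte-like over other nuclei 6 of 13 had enough counts, and in all 3 conditions none was higher and Abcc9 was lower. In Schwann-like over other nuclei none of 4 was past 2-fold in all 3 conditions. Abcc9 was lower there in anagen (13.3 against 71.7 CPM) and UVB (6.74 against 34.4), but not past 2-fold in telogen (14.5 against 22.3). Dpp6 was lower there in UVB (15.4 against 32.6 CPM). Abcc9, the partner of Kcnj8, was higher in the same classes as Kcnj8: 76.1, 114 and 68.0 CPM in fibroblast-like nuclei and 63.3, 86.3 and 65.1 in cluster 7, against 4.13, 5.35 and 4.53 in melanocyte-like nuclei. Between conditions of melanocyte-like nuclei, Dpp6 (4.13 and 29.7 CPM) and Amigo1 (4.13 and 11.3 CPM) were higher in anagen than in telogen, each from 1 telogen count, of 5 with enough counts. None of 5 differed 2-fold between UVB and telogen, and Dpp6 was lower in UVB than in anagen (29.7 and 6.80 CPM), of 8.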

How the data were processed

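The authors deposited raw counts per nucleus and 500 bp feature, whole numbers from 1 to 4 where above 0, in 1 matrix for each condition. Bowtie2, SAMtools, MACS2 and mm10 (GRCm38) are named in the submitters' processing notes; their versions, how cuts were shifted and counted, nucleus filters and doublet removal were not stated in any label or header, and no doublet caller was run. The 3 samples comprised 1 library for telogen and anagen and 2 technical replicates of the UVB pool, which share 1 matrix and whose nuclei carry no replicate label here.

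Genes and promoters came from RefSeq (GRCm38.p6), taken as the same build as mm10; windows ignored exons, so features were not assigned to exons, introns or UTRs. Nuclei sharing over 30% of open features counted once. Clusters came from TF-IDF on 163158 features, 30 components with 1 left out, 15 neighbours and Leiden clustering at resolution 0.6, seed 1 (Python 3.11.15, scipy 1.17.1, sklearn 1.9.0, igraph 0.11.9, leidenalg 0.10.2). A cluster took the name of a marker list with at least 3 markers 2-fold higher. Cluster 7, which took a name by this rule, is given by number, a choice made after its values were seen. Ratios of CPM carry exact conditional binomial 95% intervals, checked on simulated data. They cover counting error only and are too narrow, since 61.1% of entries above 0 hold the value 2 and cuts of 1 fragment are not independent. A side at 0 was set to 3 counts; counting error allows somewhat more, so the interval is given beside such ratios.

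The members, marker lists and partner list were chosen with earlier results of these data known. Genes named in full were those past 2-fold in all 3 conditions in melanocyte-like or Schwann-like nuclei (up to 10 a direction), the up to 6 largest in each direction between conditions with an interval off 1, the 10 highest in melanocyte-like nuclei, and a set list of 14; members named for other classes or within cluster 1, and Kcna6, were chosen after their values were seen. Some genes that met these rules are not reported here. Alternatives covered the clustering, second copies, windows, shared features, unit, count minimum, high-count nuclei, scale and barcode numbers.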

Additional observations from a re-analysis of the deposited data

Results flagged for a closer look

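Some members stood on opposite sides of other nuclei in different conditions; none of these differences was tested, since each condition is 1 sample. Kcnk13 in melanocyte-like nuclei was 0.395 of other nuclei in telogen, with its 0 counts taken as 3 (95% interval up to 0.491), and 2.21-fold in anagen. Kcnj11 was 2.23-fold in anagen and 0.446 in UVB. Kcnn4 in Schwann-like nuclei was 0.155 of other nuclei in telogen, from 1 count, and 2.55-fold in anagen, from 12 counts.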

How the results depend on the processing

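Of 544 values of 41 results for single genes under the alternatives, 417 kept their direction and call, 123 kept their direction only and 4 turned. All 4 turned without cluster 8, the anagen cluster, on the log2 scale: -0.22 for Kcnip3, -0.051 for Kcnn4 and -0.40 for Kcnq5 in UVB over anagen, and 0.12 for Kcnq5 in anagen over telogen. The cause was not tested. The tally includes alternatives that could hardly undo a call. A minimum of 1 count kept all 41. Leaving out features in a second gene kept all 38 compared, but 71 of the members had no such counts to lose. Values with too few counts to compare are not in the tally. At gene ends 7 values kept their call and 11 kept their direction only.

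Counts of members past 2-fold moved by over 1.5 times as follows. For melanocyte-like over other nuclei (8), classes by marker share gave 1, counts at gene ends 1 and a minimum of 100 counts 3. For Schwann-like over other nuclei (6) these gave 0, 0 and 2, and a minimum of 1 count 10. For anagen over telogen (20), gene ends gave 5, a minimum of 100 counts 12, leaving out nuclei above 3 times the median count 13, telogen barcode numbers 8 to 10 alone 13, and leaving out cluster 8 gave 1. For UVB over anagen (22), gene ends gave 10, a minimum of 100 counts 12 and leaving out cluster 8 gave 6. For UVB over telogen (5), the count was 12 with Kcn features kept in the clustering, with seed 3 (4 higher and 8 lower in both) and with every deposited barcode (6 and 6); 9 by marker share; 3 at gene ends; 2 with open features in place of counts; 11 and 3 at a minimum of 1 and of 100 counts; 3 without the largest UVB barcode number; 8 with telogen numbers 8 to 10; and 14 with cluster 3 counted as melanocyte-like, an alternative chosen after seeing the data. Gene ends and higher minimums leave fewer members with enough counts.

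No paired analysis was possible because each condition is 1 sample and no replicate number is shared between conditions. Leaving out a replicate was not run, since the UVB replicates share 1 matrix. The 142 telogen melanocyte-like nuclei, with 242205 counts, limit every comparison with telogen: 1 count there is 4.13 CPM.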
